A study of Mus musculus with 16 samples.

Results

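Peroxisomes are single-membrane organelles whose proteins are made in the cytosol and brought in by peroxins, the products of the Pex genes. The genes described here are 43 genes of peroxisome biogenesis and peroxisomal metabolism, 13 Pex genes and 30 enzymes and transporters, out of 32989 gene rows in the deposited liver and kidney tables. They were taken by gene symbol, and where a symbol had 2 rows, which was the case for 1 member, Nudt12, the row with the highest mean level was used. Liver and kidney RNA came from male C57BL/6J mice, wild type as far as the labels go, kept for 85 weeks and aged 97 weeks at sampling. The LD group (mice L63, L65, L86 and L104) lived under lights from 8:00 to 20:00. The ADV group (mice A75, A91, A94 and A115) had its light phase moved 8 h earlier once every 4 days, a schedule of chronic jet lag. Each group had 4 mice, and both organs of the same 8 mice were measured, which makes 16 libraries. The organs were taken early in the dark phase, in a single window counted from the last light-on. A level here is therefore a level at that time and not over the cycle. The paper reports that the activity of ADV mice did not resettle to each shifted cycle. The internal phase of the mice in this window was not measured here, and it cannot be told apart from the schedule. Poly(A) RNA was sequenced in a strand-specific way by 2 providers on 2 instruments, and no label ties a library to a provider, which means that provider and group cannot be told apart. The question was which of these genes differed between LD and ADV in each organ, and how the organs themselves differed.

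Peroxisomes shorten very long-chain and branched fatty acids by beta-oxidation, remove the first carbon of phytanic acid by alpha-oxidation, begin the synthesis of ether lipids, and oxidize D-amino acids, glycolate and urate. Their oxidases make hydrogen peroxide, which catalase breaks down. In rodent liver many of the enzymes are known targets of the nuclear receptor PPARalpha, which binds as a pair with RXR to repeats of the hexamer AGGTCA. Hepatocytes and cells of the proximal tubule are the cells with the most peroxisomes in these organs.

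Because several members had lower levels in every ADV kidney, the sequences around their start sites were searched on both strands for the repeat AGGTCANAGGTCA with up to 2 mismatches outside the N, for the single hexamer AGGTCA, which can lie inside the repeat, and for CACGTG, the E-box bound by clock factors. A RefSeq entry (GRCm38.p6, 250 bases before to 50 after the start) was matched for 35 of the 43 members, the one nearest to the gene start in the tables. Windows of 30 bases from 4 members with high or differing levels are shown, with the match in capitals, read 5′ to 3′ along the strand of the gene.

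Acox2, chr14:8258809-8258838, minus strand, repeat starting at position 10 after the start: gctgtcccAGGACAGAGGTGAgtcaagagt

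Cat, chr2:103485336-103485365, minus strand, repeat starting at position -204: actctcagAGGTCAGAGAACAccagcaggg

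Scp2, chr4:108118639-108118668, minus strand, hexamer starting at position -109: gtctaacacagtAGGTCAaaagaacccata

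Phyh, chr2:4919016-4919045, plus strand, hexamer on the opposite strand starting at position 37 after the start: tgccgtaagttaagtgTGACCTgggcgcag

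The repeat was found in 2 of the 35 members, Acox2 and Cat, each with 2 mismatches, against 3.86% of 32851 mouse entries. The hexamer was found in 5 members against 16.3% of entries, and CACGTG in 2, Gnpat and Ddo, against 7.15%. Abcd3, Ehhadh, Crot and Nudt19, which had the smallest p among the lower members of the kidney, held none of these letters in this window. A match is a description of letters in a short window and not a binding site.

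The libraries held 21092501 to 24285055 fragments on genes in the liver and 15688495 to 18043306 in the kidney. Levels are FPKM, fragments scaled to exon length in kilobases and to the library total, as deposited. All 7 hepatocyte markers found were called higher in the liver and all 8 proximal tubule markers higher in the kidney, and Slc34a1, Slc22a6 and Kap were at 0 in every liver. The kidney of A115 stood apart from the other 7: mitochondrial genes took 33.8% of its gene fragments against 9.43% to 18.02%, and its mean correlation with the other kidneys was 0.858 against 0.932 to 0.964. It was the lowest of the 8 kidneys for 29 of the 40 members tested, and for 55.4% of all genes tested. The liver of A94 had the highest summed level of the 10 leukocyte markers, 698 FPKM, against 103 to 203 in the other livers, and its mean correlation with the other livers was 0.941 against 0.977 to 0.982. Kidney results are therefore given with and without A115, and liver results with and without A94 where that changed them.

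**Figure D1:**
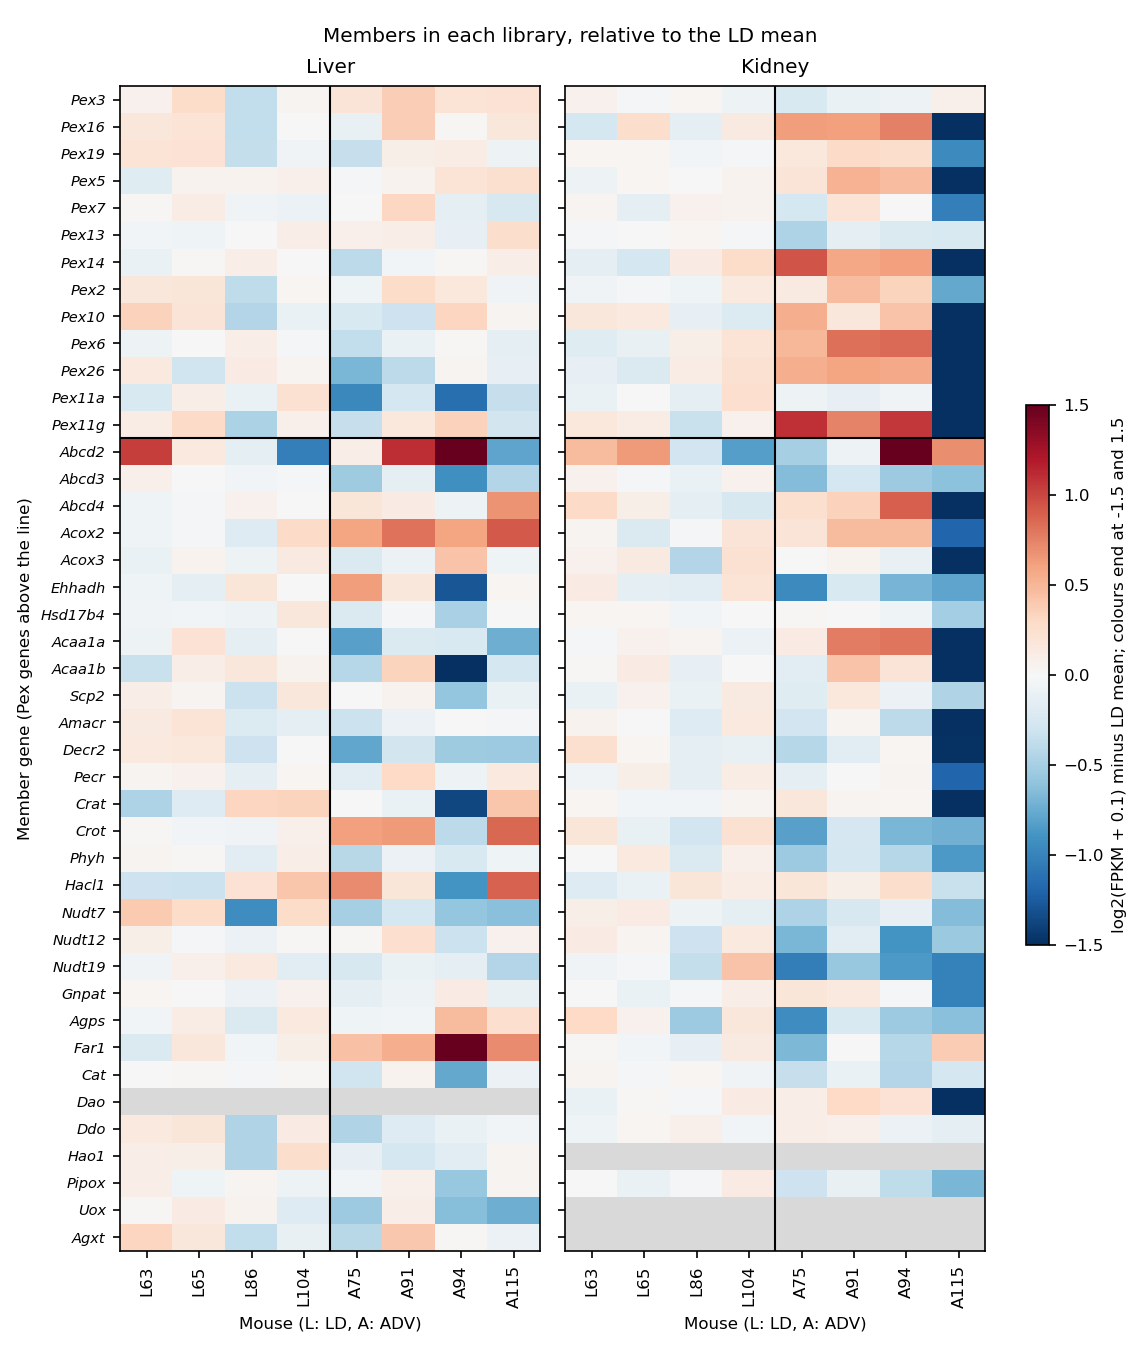
Each member in each library as log2(FPKM + 0.1) minus the mean of the 4 LD libraries of that organ, with Pex genes above the horizontal line and LD mice to the left of the vertical line. Blue is below and red above the LD mean, the colours end at -1.5 and 1.5, and grey marks members not tested because they lay at or near 0. The kidney of A115 is blue for most members, and most Pex genes are red in the other 3 ADV kidneys.

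The organs carried different sets of peroxisomal enzymes. In LD mice urate oxidase (Uox) averaged 1546 FPKM in liver and glycolate oxidase (Hao1) 152, while both were almost absent from kidney, and D-amino acid oxidase (Dao) averaged 116 FPKM in kidney and was at 0 in every liver. Over the 8 kidneys Uox, which degrades urate in mice, had 4.5 fragments against 480321 in the 8 livers, a ratio, scaled to library totals, of 81218 (95% exact counting interval 31322 to 225121). Hao1, which oxidizes glycolate to glyoxylate, had 1 fragment in the kidneys against 56217.5 in the livers (interval of the ratio 7677 to 1689590). Agxt, which turns glyoxylate into glycine, had 0.5 fragment against 25713.5 (interval 3511 to 772814). The step of 0.5 is a single read of a pair, and these intervals cover counting error only. Dao showed the opposite pattern, with 936 to 5321 fragments in each kidney and 0 in 8 of 8 livers. Set against a floor of 3 fragments over the 8 livers, it was at least 14282-fold higher in kidney.

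Nudt19 and Nudt7, which both cleave coenzyme A inside peroxisomes, were split between the organs. Nudt19 averaged 561 ± 130 FPKM in LD kidney (SD, n = 4) and 29.7 ± 2.80 in LD liver, a log2 difference, liver minus kidney, of -4.21 (SE 0.16, limma adjusted p = 5.83e-12). Nudt7 averaged 14.4 ± 1.22 in LD kidney and 363 ± 124 in LD liver, a difference of 4.57 (SE 0.24, limma adjusted p = 2.07e-10). In every mouse the order of the 2 genes was opposite in the 2 organs.

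Ether lipid synthesis leaned to the kidney. Far1, which makes the fatty alcohols that ether lipids contain, averaged 64.5 ± 4.92 FPKM in LD kidney and 0.759 ± 0.0977 in LD liver (log2 difference -6.24, SE 0.35, limma adjusted p = 5.2e-10). Agps, which forms the ether bond, averaged 45.2 ± 10.5 and 2.22 ± 0.254 (-4.26, SE 0.20, limma adjusted p = 5.67e-11). Gnpat, the acyltransferase that starts the pathway, was closer, at 26.5 FPKM in LD kidney and 12.3 in LD liver. Its call as higher in kidney was lost with median ratio scaling (log2 difference -0.29, limma adjusted p = 0.0787).

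**Figure D2:**
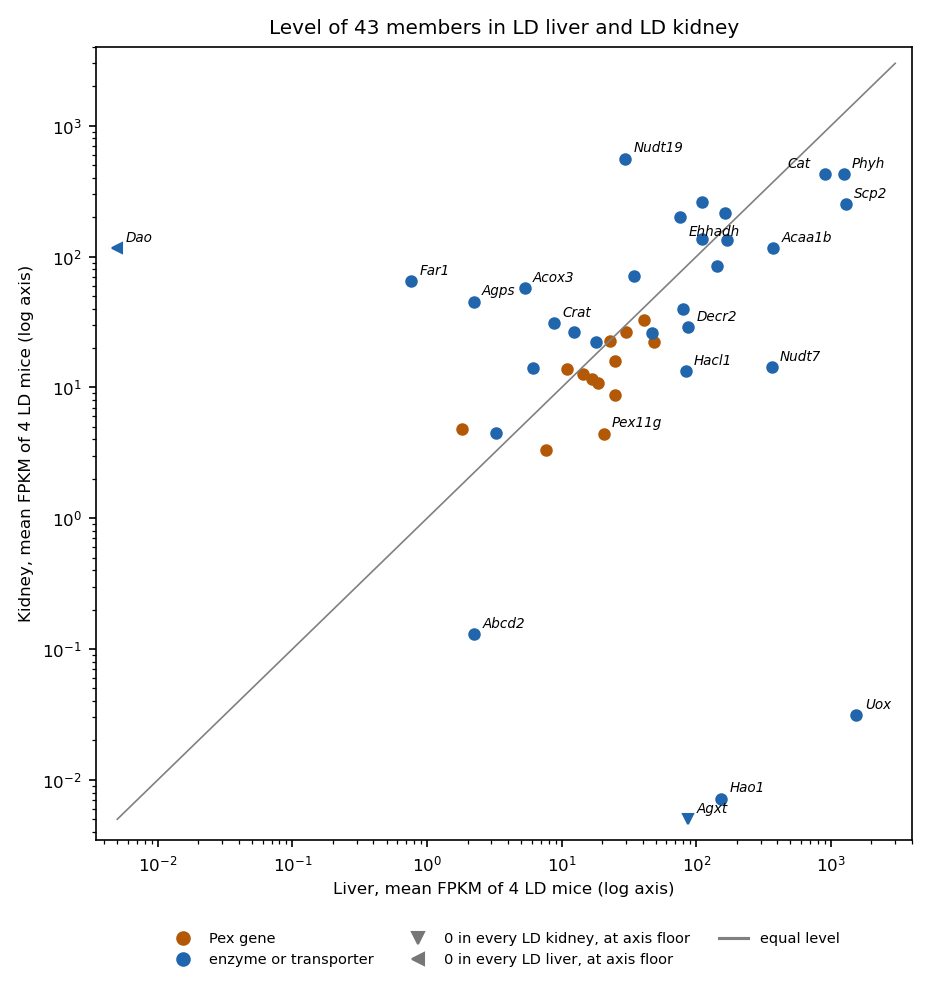
Mean FPKM of the 43 members in the 4 LD livers (horizontal, log axis) and the 4 LD kidneys (vertical, log axis), with Pex genes in brown and enzymes and transporters in blue. The grey line marks equal levels, and triangles at the axis floor mark genes at 0 in every LD library of an organ. Far1, Agps and Nudt19 lie far above the line, Uox, Hao1 and Agxt far below it, and most Pex genes closer to it, with Pex11g among those farther off.

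Enzymes of beta-oxidation were split, and in LD 5 of the 12 were called higher in liver, against 11% of all genes, and 5 higher in kidney, against 55.3%. The counts with median ratio scaling were 6 against 25%, and 3 against 29.5%. Scp2, whose longer product is a thiolase for branched chains, averaged 1289 FPKM in LD liver and 252 in LD kidney. Phyh, the phytanoyl-CoA hydroxylase of alpha-oxidation, averaged 1242 and 429, and catalase (Cat) 906 and 425. The thiolase gene Acaa1b averaged 374 and 116. These 4 were called higher in liver in LD and in ADV, with and without median ratio scaling. Among those called higher in LD kidney as deposited, the enoyl-CoA reductase Pecr averaged 110 FPKM in LD liver and 260 in LD kidney, the racemase Amacr 34.6 and 70.5, and the branched-chain oxidase Acox3 5.31 and 57.4. Pipox, which oxidizes pipecolate and sarcosine, averaged 164 and 215. Amacr and Pipox were not called in LD with median ratio scaling. Abcd2, which imports very long-chain acyl-CoA, was low in both organs, 2.24 FPKM in LD liver and 0.13 in LD kidney, with 123 to 755.5 fragments per liver and 2 to 55.5 per kidney. Ehhadh, the bifunctional enzyme of straight-chain beta-oxidation, averaged 75.6 FPKM in LD liver and 200 in LD kidney, and its call as higher in kidney did not hold with median ratio scaling (limma adjusted p = 0.189). Acaa1a averaged 79.0 and 39.5 FPKM and was called only with median ratio scaling. Acaa1a and Acaa1b are close copies, and how reads were divided between them is uncertain.

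Among the Pex genes the differences between organs were smaller than those of Far1, Nudt7 or Nudt19. Pex5, the receptor for the carboxy-terminal import signal, averaged 24.99 FPKM in LD liver and 15.9 in LD kidney. Pex7, the receptor for the amino-terminal signal, averaged 40.6 and 32.5. Neither was called in LD, and both were called higher in liver with median ratio scaling (limma adjusted p = 0.00257 and 7.43e-05). Pex11a, which takes part in the division and growth of peroxisomes, averaged 48.8 and 22.4 FPKM and was called under both scalings. So were Pex11g, at 20.5 and 4.43 FPKM, and Pex16, which helps bring in membrane proteins, at 25.01 and 8.80. Pex10, of the ubiquitin ligase, was called higher in kidney, at 1.83 and 4.81 FPKM, and not with median ratio scaling (limma adjusted p = 0.132).

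In the fit over all 16 libraries, 16 of 43 members were called higher in liver in LD, against 11% of all genes tested, and 14 higher in kidney, against 55.3%, at an adjusted p under 0.05. In ADV the counts were 19 against 11.2%, and 11 against 51.2%. These shares carry a shift of the whole table, since the median log2 difference of all genes was -0.79 in LD and -0.68 in ADV with the deposited scaling. With median ratio scaling, which centres that difference, the LD counts were 26 in liver against 25% of genes and 7 in kidney against 29.5%. The ADV counts were then 30 against 24.6%, and 7 against 26.8%. Members called in LD and in ADV alike numbered 16 for liver and 11 for kidney, and 26 and 6 with median ratio scaling. Of the 13 Pex genes, 3 were called higher in LD liver and 2 in LD kidney, and 11 and 0 with median ratio scaling. Within LD, and within ADV, no member called higher in kidney was called higher in liver under the other scaling. Across them, Pex3 and Pipox were called higher in kidney in LD as deposited, and higher in liver in ADV with median ratio scaling.

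In the liver no member passed the test between ADV and LD at an adjusted p under 0.05, and Acox2 had the smallest p, with 46.5 ± 6.84 FPKM in LD and 76.9 ± 8.76 in ADV (SD, n = 4). Of all genes tested, 0.00779% passed, which is 1 gene. Before adjustment, limma p values under 0.05 were found for 2 of 42 members higher in ADV, against 8.65% of all genes, and for 5 lower, against 3.13%. Without A94 they were found for 4 higher, against 8.8%, and 6 lower, against 5.66%. With median ratio scaling they were found for 2 higher, against 6.55%, and 8 lower, against 6.7%. Limma-voom on the recovered fragments called 0 members and gave the same counts of 2 and 5. The median log2 fold change, ADV minus LD, was -0.068 over the members, -0.028 over the 13 Pex genes and -0.12 over the 29 enzymes tested, beside 0.096 over all genes. Without A94 it was -0.093 over the members, -0.11 over the Pex genes and -0.079 over the enzymes, beside 0.025 over all genes. In bulk RNA, fewer cells of a type and less RNA per cell cannot be told apart.

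Acox2, the oxidase that starts beta-oxidation of bile acid intermediates and branched chains, lies on chromosome 14 (mm10, 8225511 to 8258839, minus strand). It was at 44.2, 45.1, 40.4 and 56.3 FPKM in livers L63, L65, L86 and L104, and at 69.4, 81.0, 69.9 and 87.2 in A75, A91, A94 and A115. Every ADV liver lay above every LD liver, by a log2 fold change of 0.73 (SE 0.13, limma adjusted p = 0.21, exact permutation p = 0.0286). That permutation p is the smallest that 4 against 4 mice allow. In the kidney it was at 22.3 to 29.68 FPKM in LD and at 29.74, 35.9, 36.1 and 11.3 in ADV, so that 3 ADV kidneys lay above every LD kidney and that of A115 below. Its log2 fold change there was -0.011 (limma adjusted p = 1), and without A115 it was 0.38 as deposited (limma adjusted p = 0.0579) and 0.19 with median ratio scaling (limma adjusted p = 0.336).

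Crot, which moves medium-chain acyl groups onto carnitine for export to mitochondria, turned on a single liver. It was at 112, 108, 107 and 117 FPKM in the LD livers in the same order, and at 170, 172, 84.5 and 201 in the ADV livers. In A75, A91 and A115 it lay above every LD liver, and in A94 below all of them. The log2 fold change was 0.43 (SE 0.24, limma adjusted p = 0.474), and 0.70 without A94 (limma adjusted p = 0.11). Ehhadh was likewise lowest in A94, at 31.0 FPKM, where the other 3 ADV livers were at 116, 84.8 and 76.7 and the LD livers between 68.6 and 85.8. Its log2 fold change was -0.12 with A94 and 0.27 without it. Acaa1b ran from 295 to 418 FPKM in LD and was at 276, 467, 89.4 and 308 in ADV, again lowest in A94. A94 was the lowest of the 8 livers for 14 of 42 members and the highest for 6, and over all genes tested it was the lowest for 8.32% and the highest for 49.7%. The part of its high leukocyte marker level in these values was not tested.

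Far1 was low in every liver but did not overlap between the groups, at 0.638, 0.863, 0.730 and 0.807 FPKM in LD and 1.06, 1.14, 4.48 and 1.30 in ADV. Its log2 fold change was 1.03 (SE 0.40, limma adjusted p = 0.385), and 0.56 without A94 (limma adjusted p = 0.193), so that A94 alone held much of the size. Far1 and Acox2 were the 2 members with every ADV liver above every LD liver, against 6.94% of all genes. Pex3, which anchors the machinery that inserts peroxisomal membrane proteins, had the smallest p of the Pex genes with a higher mean, with 11.01 ± 1.96 FPKM in LD and 12.9 ± 0.756 in ADV and overlapping groups.

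**Figure D3:**
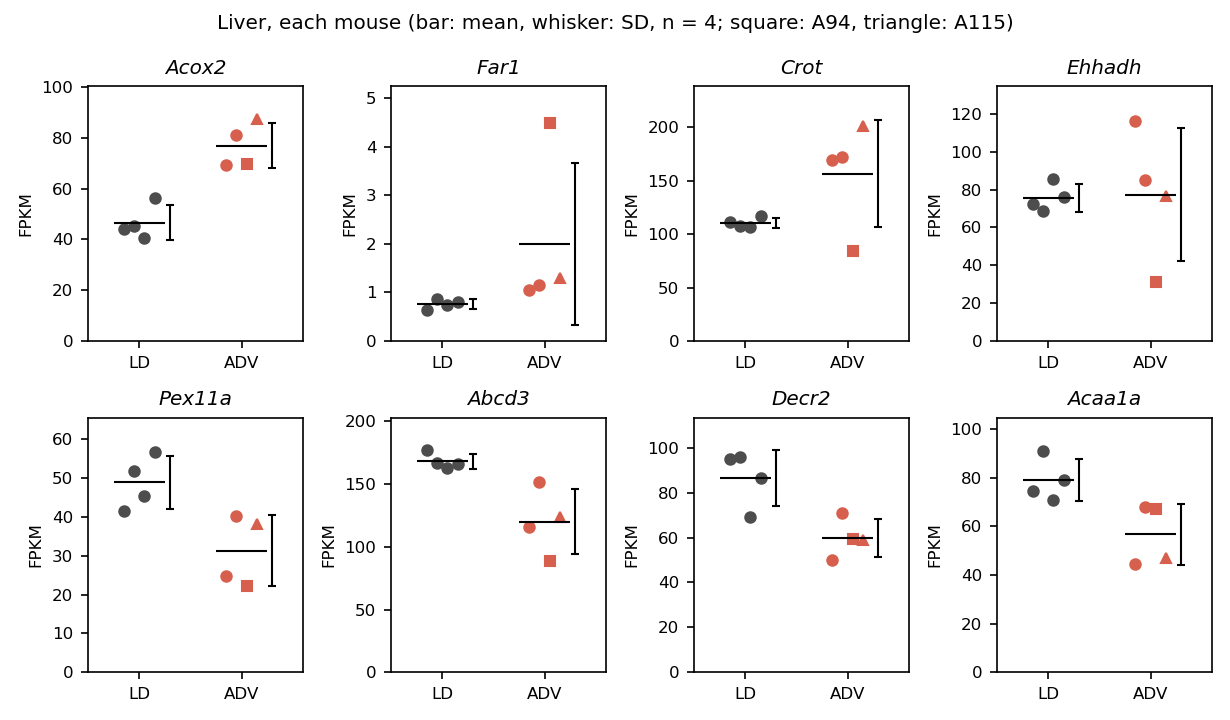
FPKM of 8 members in each liver, LD in grey and ADV in red, with the mean of 4 mice as a bar and the SD as a whisker, and A94 as a square and A115 as a triangle. Acox2 does not overlap between the groups, Crot and Ehhadh are lowest in A94, and Pex11a, Abcd3 and Acaa1a are lower in all ADV livers.

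Abcd3, Pex11a and Acaa1a had lower values in every ADV liver. Abcd3, which carries branched and long acyl chains across the peroxisomal membrane, was at 177, 167, 163 and 166 FPKM in LD and at 116, 152, 88.9 and 124 in ADV (log2 fold change -0.51, SE 0.15, limma adjusted p = 0.312). Pex11a was at 41.4, 51.8, 45.4 and 56.7 in LD and at 24.7, 40.2, 22.1 and 38.1 in ADV (-0.68, SE 0.20, limma adjusted p = 0.322). Acaa1a, a thiolase that takes the last step of a beta-oxidation round, was at 74.7, 91.2, 71.0 and 79.2 in LD and at 44.6, 67.8, 67.3 and 47.1 in ADV (-0.50, SE 0.16, limma adjusted p = 0.345). These 3 were the members with every ADV liver below every LD liver, against 1.89% of all genes. Abcd2 and Abcd4, of the same gene family as Abcd3, had positive log2 fold changes (0.50, SE 0.55, and 0.22, SE 0.16) with overlapping groups. The other thiolase genes, Acaa1b and Scp2, also overlapped between the groups.

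Decr2, a reductase for unsaturated chains, had the smallest p of the lower members, at 94.7, 95.7, 69.2 and 86.5 FPKM in LD and 50.1, 70.9, 59.2 and 58.8 in ADV (log2 fold change -0.53, SE 0.14, limma adjusted p = 0.296). The groups overlapped between L86 and A91. Uox was at 1560, 1676, 1603 and 1345 FPKM in LD and at 1060, 1655, 991 and 929 in ADV (-0.45, SE 0.19, limma adjusted p = 0.412), with A91 among the LD livers.

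The most abundant liver members besides Uox overlapped between the groups. Scp2 averaged 1289 ± 183 FPKM in LD and 1167 ± 213 in ADV, Phyh 1242 ± 92.1 and 1083 ± 116, and Cat 906 ± 16.1 and 765 ± 177, each n = 4. Cat was within 886 to 919 in LD and at 531 in A94. Pex5 averaged 24.99 ± 2.06 and 27.2 ± 2.32, and Pex7 40.6 ± 2.57 and 40.4 ± 7.05. Hao1 averaged 152 ± 29.9 and 137 ± 12.54, and Abcd2 2.24 ± 1.36 and 3.39 ± 2.22. Dao was at 0 in every liver and was the single member not tested there. With median ratio scaling the median of all liver genes was 0.0095 and that of the members -0.16, with 32 of 42 members lower in place of 27.

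**Figure D4:**
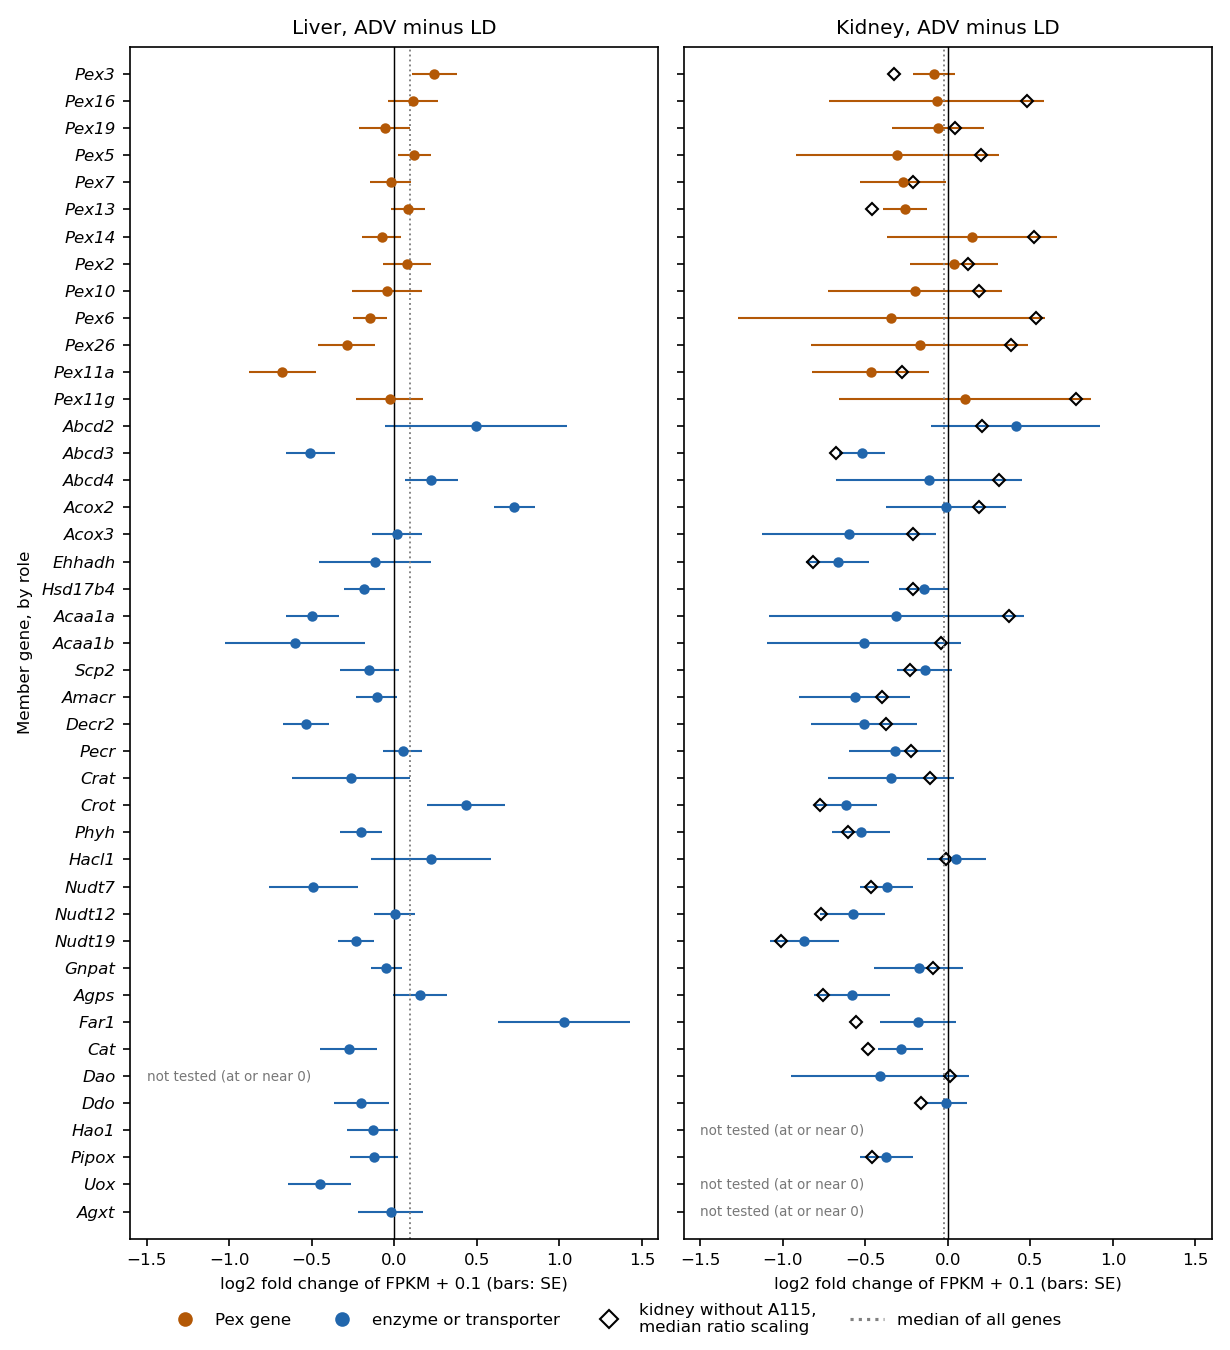
Log2 fold change of each tested member, ADV minus LD, in liver (left) and kidney (right) on the log2(FPKM + 0.1) scale, with the SE as bars, Pex genes in brown and enzymes and transporters in blue, and the median of all genes as a dotted line. Open diamonds give the kidney without A115 after median ratio scaling. In the kidney 25 of 27 enzymes lie left of 0 over 8 mice and 22 as diamonds, and 9 of 13 Pex genes lie right of 0 as diamonds.

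In the kidney Nudt19 had the smallest p between ADV and LD. It averaged 561 ± 130 FPKM in LD and 304 ± 47.0 in ADV (SD, n = 4). No member passed the adjusted test over all 8 kidneys, where 0% of all genes passed. Before adjustment, limma p values under 0.05 were found for 0 of 40 members higher in ADV, against 1.75% of all genes, and for 8 lower, all of them enzymes or transporters, against 1.35%. Limma-voom called 0 members and gave 0 higher and 9 lower before adjustment. The 8 were Nudt19, Abcd3, Ehhadh, Crot, Phyh, Nudt12, Agps and Pipox. In 7 members every ADV kidney lay below every LD kidney, against 1.83% of all genes, and in 0 above, against 0.962%. The median log2 fold change was -0.30 over the 40 members, with 35 of them lower, -0.17 over the 13 Pex genes and -0.37 over the 27 enzymes tested, beside -0.024 over all genes. Without A115 and with the deposited scaling the median over the members was -0.019, with 21 of 40 lower and an all-gene median of 0.20. With median ratio scaling it was -0.30 with A115 and -0.21 without it. As deposited and without A115 the enzyme median was -0.037, with 17 of 27 lower, and the Pex median 0.38.

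Nudt19, a coenzyme A diphosphatase at its highest in kidney, lies on chromosome 7 (mm10, 35547185 to 35555928, minus strand). It was at 531, 545, 429 and 740 FPKM in kidneys L63, L65, L86 and L104, and at 269, 370, 304 and 272 in A75, A91, A94 and A115. No ADV kidney reached the lowest LD kidney (log2 fold change -0.87, SE 0.21, limma adjusted p = 1, exact permutation p = 0.0286). Without A115 it was called lower with the deposited scaling (-0.82, limma adjusted p = 0.0254) and with median ratio scaling (-1.01, limma adjusted p = 0.0286).

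Abcd3 was the member with non-overlapping lower values in both organs. In the kidney it was at 139, 130, 124 and 139 FPKM in LD and at 84.5, 111, 90.8 and 86.7 in ADV (log2 fold change -0.52, SE 0.14). Ehhadh was at 216, 179, 177 and 228 in LD and at 102, 170, 123 and 114.9 in ADV (-0.67, SE 0.19). Crot was at 153, 126, 111 and 159 in LD and at 77.2, 114, 84.4 and 82.2 in ADV (-0.62, SE 0.19). Abcd3 and Ehhadh did not overlap between the groups, and in Crot A91 lay just above L86. Without A115 all 3 were called lower, with the deposited scaling at limma adjusted p values of 0.0232, 0.0433 and 0.0495.

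Phyh, the third most abundant member in kidney, was at 424, 473, 368 and 449 FPKM in LD and at 294, 354, 317 and 234 in ADV (log2 fold change -0.53, SE 0.18). Cat was at 438, 420, 434 and 410 in LD and at 335, 396, 314 and 355 in ADV (-0.29, SE 0.14). Neither overlapped between the groups, and A115 was not the lowest kidney for Cat. Without A115 Phyh was called lower under both scalings (limma adjusted p = 0.0491 as deposited and 0.0384 with median ratio scaling), and Cat only with median ratio scaling (-0.49, limma adjusted p = 0.0467).

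For several enzymes A115 lay far below the other 7 kidneys. Dao was at 108, 117, 113 and 127 FPKM in LD and at 125, 143, 135 and 24.4 in ADV. Acaa1a was at 37.2 to 41.1 in LD and at 42.99, 67.1, 68.6 and 5.09 in ADV, and Acaa1b at 106 to 126 in LD and at 103, 155, 132 and 20.7 in ADV. The other 3 ADV kidneys of Acaa1a lay above every LD kidney, and its log2 fold change turned from -0.31 to 0.56 without A115 (limma adjusted p = 0.0433 as deposited and 0.172 with median ratio scaling). Uox, Hao1 and Agxt had 4.5, 1 and 0.5 fragments over all kidneys and were not tested. Abcd2, the higher member with the smallest p, had 0.130 ± 0.1002 FPKM in LD and 0.227 ± 0.206 in ADV, and Hacl1, the lyase of alpha-oxidation, 13.3 ± 1.65 and 13.9 ± 2.38, with overlap in both.

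**Figure D5:**
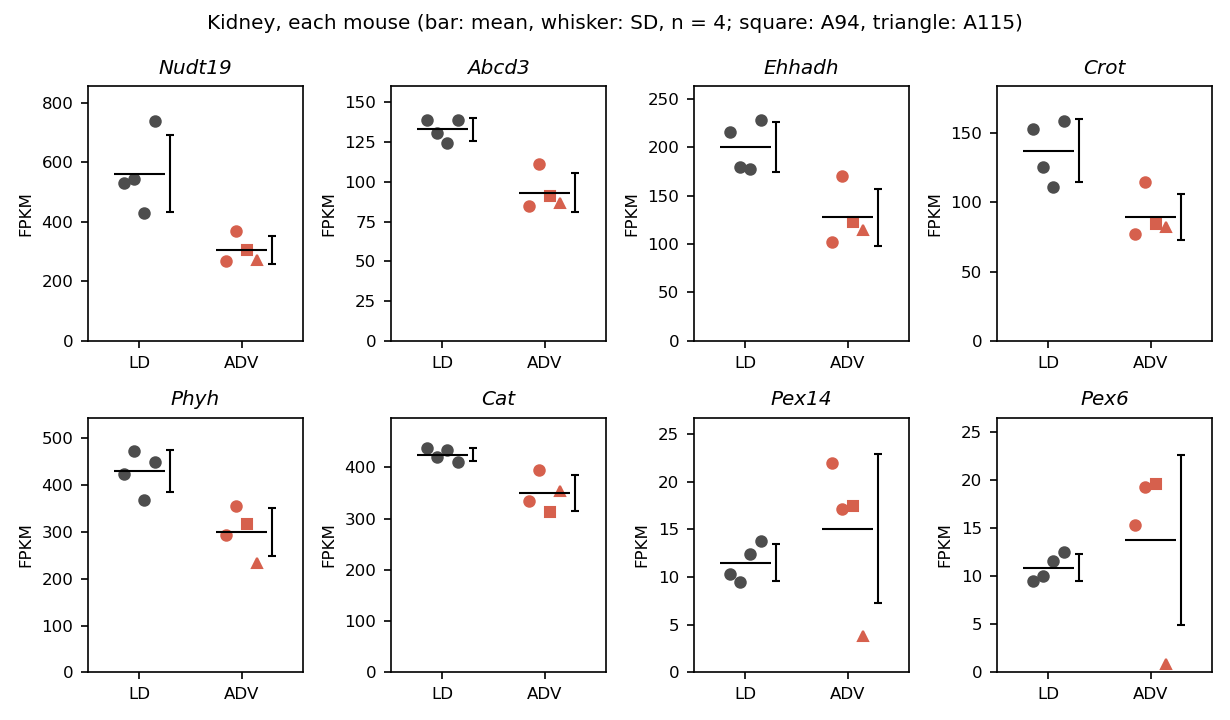
FPKM of 8 members in each kidney, LD in grey and ADV in red, with the mean of 4 mice as a bar and the SD as a whisker, and A94 as a square and A115 as a triangle. Nudt19, Abcd3, Ehhadh, Phyh and Cat do not overlap between the groups, while Pex14 and Pex6 are higher in 3 ADV kidneys and lowest in A115.

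The Pex genes called higher in the kidney without A115 and with median ratio scaling were Pex14, Pex6 and Pex11g. Pex14, the docking protein on which cargo receptors land, was at 10.3, 9.48, 12.45 and 13.8 FPKM in LD and at 22.0, 17.1, 17.4 and 3.82 in ADV. Pex6, part of the motor that pulls receptors back out of the membrane, was at 9.51, 9.99, 11.5 and 12.53 in LD and at 15.3, 19.3, 19.5 and 0.837 in ADV. Pex11g, of the same family as Pex11a, was at 4.92, 4.74, 3.48 and 4.60 in LD and at 9.54, 7.41, 9.28 and 0.699 in ADV. For all 3 the kidneys of A75, A91 and A94 lay above every LD kidney and that of A115 below every one. Over 8 kidneys their log2 fold changes were 0.15, -0.34 and 0.10 with SE of 0.52, 0.93 and 0.76. Without A115 and with median ratio scaling they were 0.52, 0.53 and 0.78 (limma adjusted p = 0.0419, 0.0423 and 0.0254).

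Pex5 was at 14.99 to 16.5 FPKM in LD and at 18.1, 22.8, 21.9 and 2.92 in ADV, and without A115 it was called higher as deposited (limma adjusted p = 0.0343) and not with median ratio scaling (0.27). Pex7 averaged 32.5 ± 2.17 in LD and 28.2 ± 9.26 in ADV, Pex11a 22.4 ± 2.86 and 17.5 ± 6.89, and Pex2, of the ubiquitin ligase that marks receptors for export, 22.6 ± 1.58 and 24.4 ± 7.89, each with overlap. The log2 fold changes of Pex7, Pex11a and Pex2 were -0.27, -0.47 and 0.039 with all mice. Without A115 they were -0.021, -0.085 and 0.31 as deposited, and -0.21, -0.28 and 0.12 with median ratio scaling, none of them called. Pex13, the other docking protein, went with the enzymes, at 12.53 to 12.95 FPKM in LD and 9.18, 11.5, 10.95 and 10.8 in ADV, and was called lower without A115 and with median ratio scaling (log2 fold change -0.46, limma adjusted p = 0.0425).

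Without A115 and with median ratio scaling, 9 of 40 members were called lower in ADV, against 7.7% of all genes, and 3 higher, against 8.31%. The 9 were 8 enzymes (Abcd3, Ehhadh, Crot, Phyh, Nudt7, Nudt19, Cat and Pipox) and Pex13, and the 3 were Pex genes. With the deposited scaling and without A115, 5 were called lower, against 2.68%, all enzymes, and 7 higher, against 16.1%, of which 6 were Pex genes (Pex5, Pex6, Pex11g, Pex14, Pex16 and Pex26) and the other Acaa1a. The median log2 fold change without A115 and with median ratio scaling was 0.19 over the Pex genes and -0.23 over the enzymes, beside 0.015 over all genes, and 22 of 27 enzymes and 4 of 13 Pex genes were lower. The ADV arm then rested on 3 mice.

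With all mice, no marker of another cell type passed the adjusted test between ADV and LD in either organ. The 8 proximal tubule markers were all lower in the fit over 8 kidneys, 0 of them with an unadjusted p under 0.05. Their summed levels were 29015 to 42033 FPKM in LD and 20158 to 46553 in ADV, the highest of them in A115. Kap alone made up most of these sums on average, at 34104 FPKM in LD and 27555 in ADV. Without A115, 4 of these markers were higher, 2 of them passing the adjusted test, against 16.1% of all genes, and 4 lower. When the scaling was also by the median ratio, 3 were higher, 1 of them passing, against 8.31%, and 5 lower. The 6 distal nephron markers were then 6 of 6 higher as deposited, 1 passing, and 3 of 6 higher with median ratio scaling, 0 passing. All 10 leukocyte markers had higher means in ADV in each organ, 3 of them in liver, against 8.65% of all genes, and 0 in kidney, against 1.75%, with an unadjusted p under 0.05. Without A94 5 of 9 tested in liver had such a p, against 8.8%, and without A115 2 of 10 in kidney, where 4269 of 14475 genes did so. Their sums were 183 to 524 FPKM in LD kidneys and 477, 228, 1709 and 163 in kidneys A75, A91, A94 and A115, so that A94 stood apart in the kidney too. All 5 fibroblast markers had higher means in ADV in each organ. An unadjusted p under 0.05 was found for 4 in liver and 2 in kidney, against the same 8.65% and 1.75%. Without A115 it was found for 3 in kidney, where again 4269 of 14475 genes did so. The sums of the fibroblast markers were 113 to 129 in LD livers and 156 to 325 in ADV livers. In kidneys they were 38.7 to 65.2 in LD and 44.0 to 131 in ADV. In LD, Dcn alone made up most of them on average, at 112 FPKM in liver and 34.8 in kidney. The part of these cell types in the values of the members was not tested.

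The difference between the organs in the effect of ADV was tested over all 16 libraries. No member passed (0% of all genes), and before adjustment 6 of 43 members had a higher effect in liver, against 3.1%, and 0 in kidney, against 0.626%. Limma-voom called 0 members and gave 6 and 0 before adjustment. Crot had the smallest p, with a log2 effect of 0.43 in liver and -0.62 in kidney, a difference of 1.05 (SE 0.32, limma adjusted p = 1). The other 5 were Nudt19, Agps, Nudt12, Far1 and Pex13, with differences of 0.64, 0.74, 0.58, 1.21 and 0.34. Acox2 differed by 0.74 (SE 0.40, limma adjusted p = 1). That fell to 0.37 (SE 0.22, limma adjusted p = 0.342) when mouse A115 was left out and the scaling was by the median ratio. Without mouse A115 and with median ratio scaling, 3 members had a higher effect in kidney, against 2.4% of all genes, namely Pex14, Pex6 and Pex26 (differences of -0.77, -0.79 and -0.83, limma adjusted p = 0.0449, 0.0366 and 0.0481).

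Other peroxisomal genes outside the 43, a list of 37 of which 35 were found and 33 tested, were split in direction in the liver, with 16 higher and 17 lower and a median log2 fold change of -0.00087. After median ratio scaling 8 were higher and 25 lower in the liver, with a median of -0.091 and 6 lower genes with an unadjusted p under 0.05, against 6.7% of all genes. Without A94 and as deposited, 14 were higher and 19 lower, with a median of -0.054. In the kidney 10 were higher and 23 lower, with a median of -0.17, which turned to 0.075 without A115, with 21 higher and 12 lower. Without A115, 11 of 33 passed the adjusted test as higher, against 16.1% of all genes, and 3 as lower, against 2.68%. Without A115 and with median ratio scaling 4 passed as higher, against 8.31%, and 7 as lower, against 7.7%. With all mice none passed in either organ, and before adjustment 4 in liver and 2 in kidney had a p under 0.05, all lower, where 3.13% and 1.35% of all genes did so. In liver the smallest p values were those of the acyl-CoA thioesterases Acot4, at 22.0 ± 1.90 FPKM in LD and 15.5 ± 2.71 in ADV, and Acot3, at 14.8 ± 3.19 and 7.80 ± 3.65. In kidney the epoxide hydrolase Ephx2 was at 223 ± 12.1 FPKM in LD and 152 ± 45.3 in ADV.

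Genes tied to PPARalpha, a list of 22, lay lower in ADV in both organs, 18 of 22 in liver and 18 of 20 tested in kidney, with medians of -0.26 and -0.37. Of all genes, 4396 of 12835 lay lower in liver and 7745 of 14452 in kidney. Without A115 the kidney median was -0.21 with 15 of 20 lower, with 1 gene passing the adjusted test as higher and 2 as lower, against the same 16.1% and 2.68%. With median ratio scaling as well, it was -0.40, and 0 passed as higher and 5 as lower, against 8.31% and 7.7%. With all mice none passed in either organ, and before adjustment 6 in liver and 3 in kidney had a p under 0.05, all lower, again against 3.13% and 1.35%. Without A94 the liver median was -0.19 with 17 of 22 lower. Such a p was then found for 1 higher gene, against 8.8% of all genes, and 4 lower, against 5.66%. In liver Cpt1a, the gate of mitochondrial fatty acid entry, averaged 93.0 ± 9.16 FPKM in LD and 58.5 ± 6.23 in ADV (log2 fold change -0.67, SE 0.11, limma adjusted p = 0.21). Ppara itself averaged 47.3 ± 6.54 and 28.5 ± 6.87 (-0.75, SE 0.18, limma adjusted p = 0.296). In kidney the smallest p values were those of Cyp4a10, a fatty acid hydroxylase, at 132 ± 10.3 and 97.7 ± 23.0, and Cpt2, the partner of Cpt1a in the inner membrane, at 69.996 ± 4.52 and 46.0 ± 14.6.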

How the data were processed

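Per the paper's methods and the submitters' processing notes, the authors trimmed adaptors with Trimmomatic, mapped paired reads to GRCm38/mm10 with STAR (2.5.4b), dropped reads of low mapping quality with SAMtools and used Homer to count reads on the exons of a UCSC canonical gene set. The deposited values are FPKM per gene and library, although the column names say RPKM, scaled to each library's own total. Multiplied by exon length and library total, 100% of the values came out in steps of 0.5 fragment. All 16 libraries were used, and groups came from the sample labels.

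Tests were limma (3.58.1, R 4.3.3), with a trend, on log2(FPKM + 0.1) over genes with a mean level above 0.5 CPM (fragments scaled to the library total but not to length), with Benjamini-Hochberg adjustment over all genes tested and a threshold of 0.05. Fold changes on this scale understate changes of low genes. The differential test of the study, DESeq2, needs counts and was not run here. Each organ was fitted apart for ADV against LD, and all libraries together for the organ comparisons. Single members were also tested by a two-sided exact permutation test over 70 assignments. Replicates were separate mice, housed in groups, and p-values measure the spread between these mice. The fits were tested on simulated data.

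The members and lists were chosen with earlier results of these data known. Named members were, in each organ, the 4 higher and the 4 lower ones with the smallest p and the 3 with the highest level, for the organ comparison the 4 largest called differences each way, and in every comparison Pex5, Pex7, Pex11a, Ehhadh, Cat, Acaa1a, Acaa1b, Abcd2, Dao, Uox and Hao1; for other lists the 2 smallest p values. For 1 gene that this rule names in another list, the values are not reported here. Further members were named after their values were seen where they stood out in a count or in the kidney without A115. Liver and kidney were paired by the mouse numbers in the labels, and the deviations of the 2 organs from their group means correlated across genes at -0.024 to 0.55 in the 8 mice. Alternatives were other pseudocounts, filters, scalings, limma-voom, leaving out mice or mitochondrial genes, fitting both organs together, and the mouse as a block. Promoter sequences are from RefSeq (GRCm38.p6).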

Additional observations from a re-analysis of the deposited data

Results flagged for a closer look

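Within groups of 4 mice, 9 values lay far from the other 3, out of 68 groups checked. Chance alone would give about 1 in 20 if the groups were independent, but many of them share a library. The check did not cover all members. Of these, 4 belong to the kidney of A115, which was low for Pex14 at 3.82 FPKM (the others 17.1 to 22.0), Pex5 at 2.92 (18.1 to 22.8), Pex11a at 7.18 (20.5 to 21.4) and Dao at 24.4 (125 to 143). Members outside the check were low there too, such as Pex26 at 0.549 FPKM (4.87 to 5.03) and Pex16 at 1.73 (13.4 to 14.8). The kidney of A115 was the lowest of the 8 for 29 of the 40 members tested and the highest for 2. That library also stood apart in its mitochondrial share, and whether this had a part in the low values was not tested. Far1 was high in the liver of A94, at 4.48 FPKM against 1.06 to 1.30. Pex3 was high in the liver of A91, at 14.0 against 12.4 to 12.6. Pex5 was low in the liver of L63, at 21.9 against 25.9 to 26.3. In LD kidneys Pex2 was high in L104, at 24.96 against 21.6 to 22.1, and Pex7 low in L65, at 29.3 against 33.3 to 33.8.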

How the results depend on the processing

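No alternative called a member between ADV and LD in the liver. In the kidney the count of called members was 0 under every alternative with A115, 0 to 12 when mice were left out in turn (12 without A115, 7 higher and 5 lower), and 12 without A115 and with median ratio scaling (3 higher and 9 lower). The organ by schedule counts were 0 to 2 when mice were left out in turn and 3 without mouse A115 and with median ratio scaling. The median log2 fold change of the liver members was -0.16 with median ratio scaling and -0.19 with that scaling and without A115. That of the kidney members ran from -0.43 (without A94) to -0.019 (without A115), and was -0.21 without A115 and with median ratio scaling. The organ counts stayed within 1.5 times of 30 under all alternatives run, though median ratio scaling moved the LD split from 16 and 14 to 26 and 7. With the mouse as replicate block, 29 members were called in LD, 31 in ADV and 0 for organ by schedule, so the paired fit changed no count by over 1.5 times. The 21 single-member results with an unadjusted p under 0.05 (7 in liver, 8 in kidney and 6 for organ by schedule) kept their direction under all alternatives run. Some other members turned, among them Acaa1a and Acox2 in kidney without A115 and Ehhadh in liver without A94. The cause of these shifts was not tested. Depth limits Uox, Hao1 and Agxt in kidney, Dao in liver and Abcd2 in kidney.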

Other observations

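The 43 members together took 1.53% to 1.72% of the gene fragments in LD livers, and 1.41%, 1.72%, 1.13% and 1.4999% in the livers of A75, A91, A94 and A115. The liver share rests largely on Scp2, Uox, Cat and Phyh, with 625781, 480321, 409372 and 328139 fragments over the 8 livers. In kidneys the 43 members took 0.797% to 0.985% in LD, and 0.676%, 0.851%, 0.724% and 0.533% in the ADV kidneys in the same order. Counted against nuclear genes alone, the kidney of A115 stood at 0.804%, within the 0.757% to 0.980% of the other ADV kidneys, and the LD kidneys at 0.945% to 1.18%. The 13 Pex genes took 0.0467% to 0.0504% of gene fragments in LD kidneys, 0.0532% to 0.0607% in those of A75, A91 and A94, and 0.0230% in that of A115.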
